A study of Mus musculus with 6 samples.

Results

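Transcript levels of 10 costimulatory and TNF receptor genes were examined in ILC2s, group 2 innate lymphoid cells, which are tissue lymphocytes without rearranged antigen receptors. The members, given by name, were Icos, Cd28, Tnfrsf4, Tnfrsf8, Tnfrsf9, Tnfrsf18, Tnfrsf25, Tnfrsf1a, Tnfrsf1b and Cd27; all 10 were found among the 17546 genes of the deposited table, and all 10 passed the filter on low counts that left 13325 genes. The cells came from lungs of BALB/c mice given 3 intranasal doses of 1 µg recombinant IL-33. They were held in medium with IL-2 and IL-7 (10 ng/mL each), and either DMSO, the control, or 10 µM Yoda1, a chemical opener of the cation channel Piezo1, was present for 24 h. Both groups thus carry the IL-33, IL-2 and IL-7 stimulation, and neither represents resting cells. Libraries DMSO 1 to 3 were set against Yoda1 4 to 6. Age and sex of the mice, and whether cells were pooled, were not given in the sources used here. For the control, the design text of the series has PBS where the sample labels have DMSO.

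Costimulatory receptors add a second signal to that of an antigen receptor or, in innate lymphocytes, of cytokines and alarmins. ICOS and CD28 belong to the immunoglobulin superfamily and recruit phosphoinositide 3-kinase through short motifs in their cytoplasmic tails. OX40 (Tnfrsf4), CD30 (Tnfrsf8), 4-1BB (Tnfrsf9), GITR (Tnfrsf18), DR3 (Tnfrsf25), CD27 and the TNF receptors TNFR1 (Tnfrsf1a) and TNFR2 (Tnfrsf1b) belong to the TNF receptor superfamily, bind trimeric ligands and signal through TRAF adaptors to NF-kB. TNFR1 and DR3 also carry a death domain. In lung ILC2s, ICOS with its ligand, GITR and DR3 are known as receptors that sustain survival or cytokine release.

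Of the TNF receptor genes, Tnfrsf8, Tnfrsf1b, Tnfrsf9, Tnfrsf25, Tnfrsf4 and Tnfrsf18 lie on chromosome 4, Tnfrsf1a and Cd27 on chromosome 6, and Icos and Cd28 on chromosome 1 with Ctla4 between them (GENCODE M21, GRCm38). Tnfrsf8 (145267137 to 145315164) and Tnfrsf1b (145213463 to 145246870) are neighbours on the minus strand, 20.3 kb apart. Tnfrsf4 (156013843 to 156016612) and Tnfrsf18 (156026164 to 156028895) are neighbours on the plus strand, 9.6 kb apart. The antisense gene Gm16008 shares 414 exonic bases with Tnfrsf18, and the counting's strand setting was not given in the sources used here, so reads of the pair may not be told apart. Gm16008 was counted at 13.3 to 16.6 CPM (a gene's counts relative to the library's TMM-scaled total) with DMSO and at 9.06 to 9.87 CPM with Yoda1. Its change did not pass the test described below (adjusted p = 0.286, edgeR quasi-likelihood test). Tnfrsf18 was at 932 to 1181 CPM over all libraries.

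Sequences before the transcription start are shown for 2 receptor genes that fell with Yoda1, Tnfrsf8 and Tnfrsf9, and for 2 that did not pass the test, Tnfrsf1b and Tnfrsf25. They are the 250 bases before the RefSeq start (GRCm38.p6), 5′ to 3′ in the direction of the gene. RefSeq sequences were matched for 8 of the 10 genes, in 10 windows. Capitals mark matches on either strand to 6 motifs: AP-1 (TGANTCA), CRE (TGACGTCA), the NFAT core (GGAAAA), STAT (TTCNNNGAA), Sp1 (GGGCGG) and the kappa B motif of NF-kB. The windows are chr4:145315165-145315414 on the minus strand for Tnfrsf8, chr4:150919905-150920154 on the plus strand for the outer start of Tnfrsf9, chr4:145246871-145247120 on the minus strand for Tnfrsf1b and chr4:152115684-152115933 on the plus strand for the outer start of Tnfrsf25. The last line is a stretch of 30 bases, chr4:150927952-150927981 on the plus strand, before the inner start of Tnfrsf9.
Tnfrsf8: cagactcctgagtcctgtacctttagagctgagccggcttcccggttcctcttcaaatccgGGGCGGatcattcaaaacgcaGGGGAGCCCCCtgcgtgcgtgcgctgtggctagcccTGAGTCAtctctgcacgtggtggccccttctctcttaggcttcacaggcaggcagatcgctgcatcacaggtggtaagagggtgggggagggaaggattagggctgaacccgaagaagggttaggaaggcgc
Tnfrsf9, outer start: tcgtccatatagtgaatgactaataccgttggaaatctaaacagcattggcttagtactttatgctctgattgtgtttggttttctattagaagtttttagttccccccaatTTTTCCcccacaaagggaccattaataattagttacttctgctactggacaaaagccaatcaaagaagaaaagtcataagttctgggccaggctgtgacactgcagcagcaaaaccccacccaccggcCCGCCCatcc
Tnfrsf1b: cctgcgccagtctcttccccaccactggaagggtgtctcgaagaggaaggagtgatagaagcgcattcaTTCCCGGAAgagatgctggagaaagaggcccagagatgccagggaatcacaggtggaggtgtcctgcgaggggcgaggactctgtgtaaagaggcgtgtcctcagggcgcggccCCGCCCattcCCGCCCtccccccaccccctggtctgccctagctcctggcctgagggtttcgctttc
Tnfrsf25, outer start: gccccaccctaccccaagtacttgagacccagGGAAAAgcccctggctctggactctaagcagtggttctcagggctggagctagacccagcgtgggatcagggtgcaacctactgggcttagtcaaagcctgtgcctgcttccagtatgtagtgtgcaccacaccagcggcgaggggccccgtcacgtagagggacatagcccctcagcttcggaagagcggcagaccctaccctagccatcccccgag
Tnfrsf9, inner start: agctGGGGATTTCCCaggaggccctgctca
The Tnfrsf8 window held an AP-1 match, an Sp1 match and 2 overlapping kappa B matches. The window before the inner start of Tnfrsf9 also held an AP-1 match, 2 overlapping kappa B matches and a STAT match. The window before the inner start of Tnfrsf25, not shown, held 1 kappa B match and 1 STAT match. Of the 10 windows, 3 held a kappa B match, 2 an AP-1 match, 5 a STAT match, 4 an NFAT core match, 3 an Sp1 match and 0 a CRE match. Among all 32851 RefSeq windows of this length, 6.75% held an AP-1 match, 7.25% a kappa B match, 7.02% a STAT match, 20.4% an NFAT core match, 32.7% an Sp1 match and 1.55% a CRE match. A match describes the letters only.

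All 15 ILC2 markers on the list could be read. Gata3, the lineage factor, was at 781 to 1032 CPM, the IL-33 receptor gene Il1rl1 at 556 to 699.5 CPM and Il5 at 5308 to 8429 CPM over the 6 libraries, but Thy1, a surface marker of ILC2s, was at 0.115 to 2.87 CPM. Of the 15, which include Icos, Il2ra fell, from 1160.5 ± 19.7 to 729 ± 47 CPM, and Arg1 rose, from 243 ± 33 to 462.5 ± 15.2 CPM (SD, n = 3). An unadjusted edgeR p under 0.05 was found for 8 of the 15 markers, where 14.5% of all tested genes had one. Of the T cell markers, Cd3e was at most 2.69 CPM, Cd3d at most 1.56, Themis at most 1.27 and Trac at most 0.656 CPM. Others were read at more: Foxp3 at 2.33 to 7.68 CPM, Cd3g at 18.2 to 32.5, Cd247 at 16.2 to 25.9 and Lat at 50.2 to 68.7 CPM. The T cell receptor constant genes Trbc1 and Trbc2 were at 89.3 to 275 CPM. Totals ran from 14214048 to 31627519 counts per library. DMSO 2 and DMSO 3 stood apart by airway epithelial genes: the club cell gene Scgb1a1 was at 301 and 295 CPM there and at 0 in DMSO 1, Yoda1 4 and Yoda1 5. Of the other epithelial genes, only Epcam (48.8 to 71.6 CPM) and Krt18 (1.29 to 14.8 CPM) were read in every library. Krt8, Cdh1, Cyp2f2 and Sftpd were found only in DMSO 2 and DMSO 3, with Krt8 up to 11.8 CPM. Sftpa1 reached 21.3 and 21.7 CPM in those controls and 3.75 CPM in DMSO 1, but at most 0.923 CPM with Yoda1. Sftpc, of alveolar cells, was highest in DMSO 1 at 15.2 CPM. The 10 epithelial markers that could be read summed to 91.0, 427 and 417 CPM in DMSO 1, 2 and 3 and to 55.2 to 77.7 CPM with Yoda1. DMSO 2 and DMSO 3 also share a library number in the labels, as do Yoda1 4 and Yoda1 5, with no meaning stated. If such libraries came from the same cells, groups hold fewer than 3 independent samples, and p-values measure the spread between libraries, which may be technical. In bulk RNA, fewer cells with a transcript and less of it per cell cannot be told apart.

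With Yoda1, 3 of the 10 receptor genes fell, none rose and 7 did not pass. The test throughout was the quasi-likelihood test of edgeR, with p-values adjusted over 13325 genes by Benjamini and Hochberg (BH) and called under 0.05. The genes that fell were Tnfrsf8, Icos and Tnfrsf9. Over all tested genes 0.923% were called lower, 0.57% higher and 1.49% in either direction. At a nominal (unadjusted) p under 0.05 there were 5 receptor genes, Tnfrsf1b and Tnfrsf25 besides the 3, where 14.5% of all tested genes were. DESeq2 called 4 receptor genes lower and none higher, with 3.53% and 3.03% of all genes so called (6.56% in either direction), and voom 3 and none, with 1.34% and 0.908% (2.25% in either direction). All 3 calls were lost with the label suffix as a term and with libraries of a shared label number summed (BH-adjusted p from 0.134 to 0.177 when summed, edgeR). So were all calls in the gene lists described further on. The suffix term sets DMSO 1 and DMSO 2 apart from the rest, so its change comes from DMSO 3 alone against Yoda1. The median log2 change was -0.63 over the 10 genes and 0.01 over all tested genes. All 3 libraries of one group lay beyond all 3 of the other for 5 receptor genes with Yoda1 below and 2 with Yoda1 above; over all tested genes 12% and 10.6% did so, 22.6% together.

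**Figure D1:**
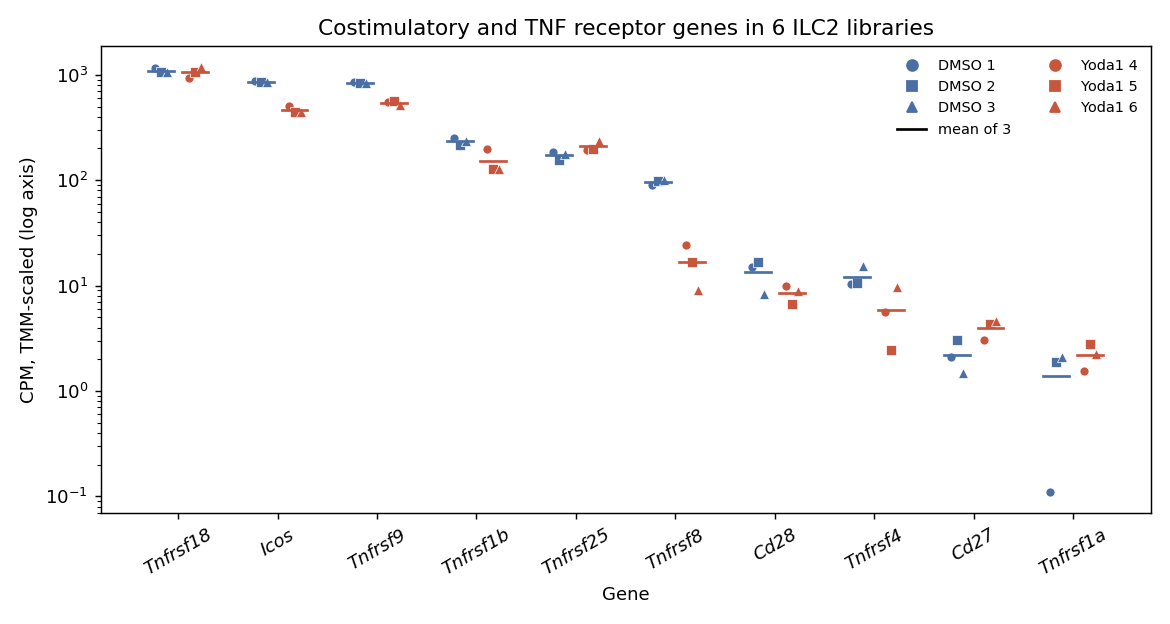
Level of each receptor gene in each library, as CPM scaled by TMM on a log axis; blue marks are DMSO 1 to 3, red marks Yoda1 4 to 6 and bars the mean of 3 libraries. Tnfrsf8 shows the widest gap between groups, 90.8 to 99.9 CPM against 9.13 to 24.5 CPM, while the groups of Tnfrsf18, Cd28 and Tnfrsf1a overlap.

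Icos encodes the inducible costimulator, which ILC2s carry together with its ligand. It was at 869.6, 849 and 863 CPM in the control libraries DMSO 1, 2 and 3, against 504, 443 and 443 CPM in Yoda1 4, 5 and 6. The DMSO libraries lay close together and every Yoda1 library was below them, at 53.8% of the DMSO mean. The log2 change was -0.89 (SE 0.08, 95% interval -1.08 to -0.70, BH-adjusted p = 0.00423, edgeR quasi-likelihood test). With each library left out in turn the change stayed between -0.96 and -0.86 and passed in 5 of 6 fits, missing the threshold without DMSO 3 (adjusted p = 0.0522). Against DMSO 1 alone, the control with Scgb1a1 at 0, the change was -0.92 and did not pass (BH-adjusted p = 0.476, edgeR).

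Cd28, the founding costimulatory receptor of T cells and a neighbour of Icos, was far less abundant than Icos per kb of exon. It was at 15.1, 16.6 and 8.35 CPM with DMSO and at 9.87, 6.69 and 8.89 CPM with Yoda1. DMSO 3 lay within the Yoda1 range, so the groups overlapped. The log2 change of -0.66 had a 95% interval of -1.42 to 0.11 (BH-adjusted p = 0.42, edgeR quasi-likelihood test), which does not show that the level was equal. With the label suffix as a term (0 for DMSO 1 and DMSO 2, another number for the rest) the change was 0.023. That fit in effect set DMSO 3, the control lowest in Cd28, against the Yoda1 libraries. Of 14 T cell markers 10 could be read. Their sum was 397 to 444 CPM with DMSO and 388 to 547 CPM with Yoda1, most of it from Trbc1 and Trbc2. Means were higher with Yoda1 for Trbc1, Trbc2 and Trac and lower for Cd3e, Cd3d, Cd3g, Cd247, Lat, Themis and Foxp3. Cd3g was at 31.5 ± 1.1 and 24.1 ± 5.2 CPM (SD, n = 3). For Cd3e, Cd3d and Cd3g every Yoda1 library was below every DMSO library, where 12% of all tested genes were so. None of the 7 tested T cell markers passed. The part of T cells in the levels of Icos and Cd28 was not tested.

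Tnfrsf8, which encodes CD30, had the largest estimated change of the 10. It was at 90.8, 97.6 and 99.9 CPM in the control libraries DMSO 1, 2 and 3, against 24.5, 16.8 and 9.13 CPM in Yoda1 4, 5 and 6. The Yoda1 libraries differed among themselves, with Yoda1 6 lowest, yet the highest of them was well under the lowest control. The mean with Yoda1 was 17.5% of that with DMSO, a log2 change of -2.52 (SE 0.31, 95% interval -3.23 to -1.80, BH-adjusted p = 0.00884, edgeR quasi-likelihood test). Left-out libraries moved the change only between -2.89 and -2.22, but the call was lost without DMSO 1, DMSO 2, DMSO 3 or Yoda1 5, at adjusted p = 0.0521, 0.0689, 0.073 and 0.0713. Against DMSO 1 alone the change was -2.44 (BH-adjusted p = 0.559, edgeR).

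Tnfrsf9 encodes 4-1BB, a receptor induced on activated lymphocytes. It was at 849, 835 and 827 CPM in the control libraries DMSO 1, 2 and 3, against 551, 562 and 516 CPM in Yoda1 4, 5 and 6. Spread within each group was small beside the gap between them, and the Yoda1 mean was 64.9% of the DMSO mean. The log2 change was -0.62 (SE 0.08, 95% interval -0.80 to -0.45, BH-adjusted p = 0.00819, edgeR quasi-likelihood test). Without DMSO 1, DMSO 2, DMSO 3 or Yoda1 5 the adjusted p was 0.0596, 0.0771, 0.073 and 0.053, with changes between -0.65 and -0.59 over all 6 such fits, and against DMSO 1 alone the change was -0.65 (BH-adjusted p = 0.701, edgeR). The sum of NK cell and ILC1 markers moved the same way as these receptors. Of 8 such markers 5 could be read, and their sum was 154 to 210 CPM with DMSO and 43.9 to 63.3 CPM with Yoda1. That sum was mostly Gzmb and Gzma, granzyme genes that activated ILC2s can also express, and both fell. Prf1 had a higher mean with Yoda1 (1.73 and 2.34 CPM) and did not pass. The defining factors Eomes and Tbx21 were at 0.836 CPM or less in every library. The part of other cells in the falls was not tested.

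Tnfrsf4, which encodes OX40, was counted at a low level in these cells. It was at 10.4, 10.5 and 15.3 CPM with DMSO and at 5.68, 2.42 and 9.67 CPM with Yoda1. All Yoda1 libraries were below all DMSO libraries, but Yoda1 6 came close to them. The log2 change of -1.02 (95% interval -2.11 to 0.06) did not pass (BH-adjusted p = 0.372, edgeR quasi-likelihood test).

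Tnfrsf18, which encodes GITR and lies next to Tnfrsf4, was the most abundant of the 10 per kb of exon. It was at 1158, 1063 and 1065 CPM with DMSO and at 932, 1058 and 1181 CPM with Yoda1. The groups overlapped on both sides, and the log2 change of -0.05 had a 95% interval of -0.27 to 0.17 (BH-adjusted p = 0.862, edgeR quasi-likelihood test). This interval does not reach the changes estimated for Icos and Tnfrsf9. Without Yoda1 4 the change was 0.031.

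Tnfrsf25, which encodes DR3, the receptor for the ligand TL1A, was at 186, 156 and 176 CPM with DMSO and at 195, 199 and 238 CPM with Yoda1. Every Yoda1 library was above every DMSO library, though DMSO 1 and Yoda1 4 were close. The log2 change of 0.29 (SE 0.12) had an unadjusted p of 0.0439 and did not pass over all genes (BH-adjusted p = 0.326, edgeR quasi-likelihood test). Cd27, better known from T and B cells, was low at 2.10, 3.03 and 1.49 CPM with DMSO and 3.03, 4.33 and 4.595 CPM with Yoda1. Its groups touched without overlapping, at 3.029 CPM in DMSO 2 and 3.033 CPM in Yoda1 4, and its log2 change of 0.85 had a 95% interval of -0.27 to 1.96 (BH-adjusted p = 0.481, edgeR quasi-likelihood test).

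The receptors of TNF itself were unequal in level per kb of exon. Tnfrsf1b, which encodes TNFR2, was at 253, 218 and 234 CPM with DMSO and at 198, 129 and 129 CPM with Yoda1. Yoda1 4 lay nearer to the controls than to Yoda1 5 and 6, and the groups did not overlap. The log2 change of -0.63 (SE 0.18, 95% interval -1.03 to -0.23) was as large as that of Tnfrsf9 but did not pass (BH-adjusted p = 0.132, edgeR quasi-likelihood test). It passed with DESeq2 (adjusted p = 0.014), with a filter of at least 10 CPM in 3 libraries (BH-adjusted p = 0.0315) and without Yoda1 4 (adjusted p = 0.0262). Tnfrsf1a, which encodes the death domain receptor TNFR1, was at 0.110, 1.89 and 2.12 CPM with DMSO and at 1.55, 2.77 and 2.27 CPM with Yoda1. Its groups overlapped, and the log2 change of 0.67 did not pass (BH-adjusted p = 0.792, edgeR quasi-likelihood test). DMSO 1 held 2 counts of this gene, and the other libraries 24 to 60. The controls with most Tnfrsf1a, DMSO 2 and DMSO 3, were also those with Scgb1a1, which was at 0.0597 CPM or less in the Yoda1 libraries; the part of epithelial transcripts in these values was not tested.

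**Figure D2:**
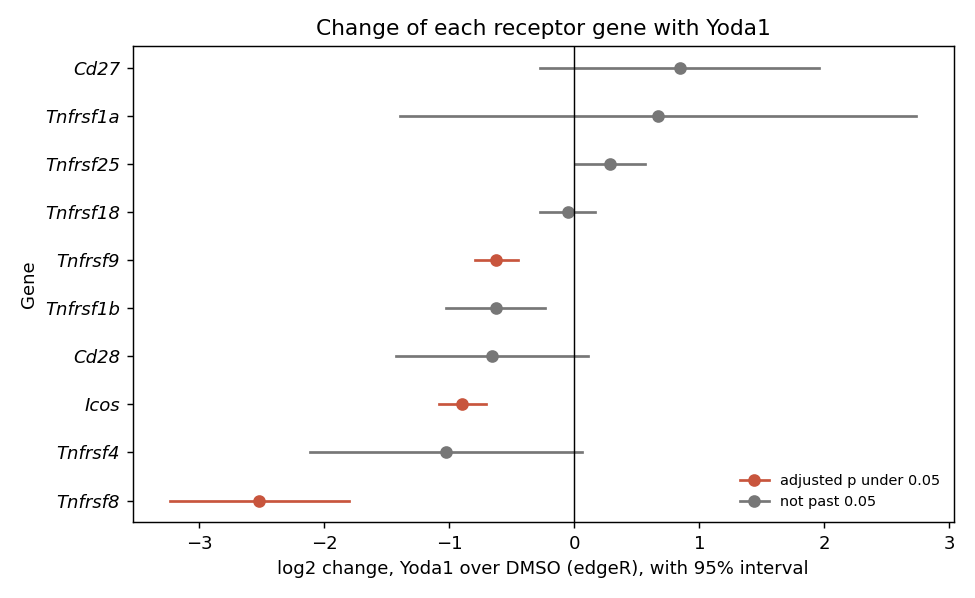
Log2 change of each receptor gene, Yoda1 over DMSO, with its 95% interval from the edgeR fit; red marks passed an adjusted p of 0.05 over all genes. The intervals of Tnfrsf8, Icos and Tnfrsf9 lie below 0, those of Tnfrsf1b and Tnfrsf25 also miss 0 without passing over all genes, and Tnfrsf1a has the widest, from -1.39 to 2.74.

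Levels of different genes were compared as CPM per kb of exon (GENCODE M21). With DMSO the order from the top was Tnfrsf18, Tnfrsf9, Icos, Tnfrsf25, Tnfrsf1b, Tnfrsf8, Tnfrsf4, Cd28, Cd27 and Tnfrsf1a. The means were 719 ± 36 CPM per kb (SD, n = 3) for Tnfrsf18, 307 ± 4 for Tnfrsf9, 251 ± 3 for Icos and 75.9 ± 6.7 for Tnfrsf25. Tnfrsf1b followed at 61.5 ± 4.6, Tnfrsf8 at 27.8 ± 1.4 and Tnfrsf4 at 8.84 ± 2.04 CPM per kb. Only Cd27 and Tnfrsf1a, at the low end, had overlapping library ranges among neighbours in this order. With Yoda1 the first 7 places were the same, with Icos at 135 ± 10 CPM per kb and Tnfrsf25 at 92.6 ± 10.4. Tnfrsf8, at 4.86 ± 2.22, then overlapped Tnfrsf4 at 4.34 ± 2.66 CPM per kb, whereas with DMSO their ranges were apart. Tnfrsf4 also overlapped Cd27, and Cd27 overlapped Cd28, with Yoda1.

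Ratios of receptor genes within a library do not depend on the scaling between libraries. Tnfrsf18 served as the denominator because it had high counts with a change near 0, a choice made with the values known, so the ratios are a description. The ratio of Icos to Tnfrsf18 counts was 0.751, 0.798 and 0.811 in DMSO 1, 2 and 3, against 0.541, 0.418 and 0.375 in Yoda1 4, 5 and 6. That of Tnfrsf9 to Tnfrsf18 was 0.733, 0.786 and 0.777 with DMSO and 0.591, 0.531 and 0.437 with Yoda1. Both ratios were lower in every Yoda1 library than in any control. Between the neighbours Tnfrsf8 and Tnfrsf1b the ratio was 0.359, 0.449 and 0.427 with DMSO and 0.124, 0.131 and 0.0707 with Yoda1, so Tnfrsf8 was lower relative to Tnfrsf1b as well. The other neighbours, Tnfrsf4 and Tnfrsf18, had a mean ratio of 0.0111 ± 0.0029 with DMSO and 0.00552 ± 0.00299 with Yoda1 (SD, n = 3). Icos to Cd28, at 57.7, 51.1 and 103 against 51.0, 66.1 and 49.9, overlapped between groups. An exact two-sided permutation test of 3 against 3 libraries cannot give a p under 0.1, which was the value for 5 of the 6 ratios (0.12 adjusted over the 6), and Icos to Cd28 gave 0.5.

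**Figure D3:**
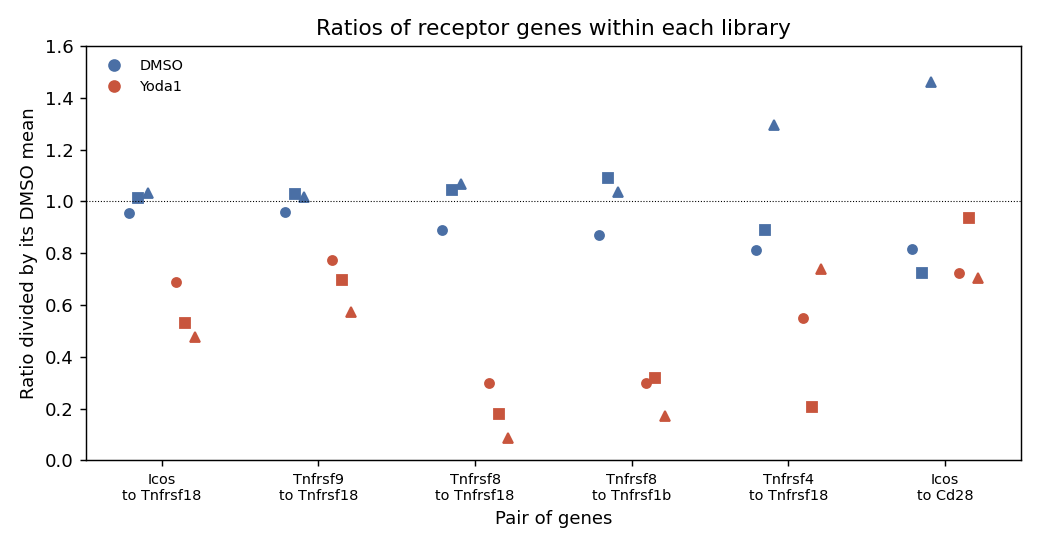
Ratio of one receptor gene to another within each library, divided by the DMSO mean of that ratio; blue marks are DMSO and red marks Yoda1 libraries, and the dotted line is 1. The Yoda1 libraries lie below all DMSO libraries for every pair except Icos to Cd28.

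Ligand genes of these receptors were read in the same libraries, with Tnfsf18 at 0.284 CPM or less and Cd86 at 1.33 CPM or less. The ligand list also held Ltb, as the partner gene of Lta. Of 9 tested ligand genes (12 in the list, 11 in the table), Lta fell, none rose and 8 did not pass. DESeq2 called 1 lower and 1 higher, with 3.53% and 3.03% of all genes so called. At a nominal p under 0.05, 2 were lower and 2, Ltb and Tnfsf4, higher, where 7.11% and 7.39% of all tested genes were. Lta, which encodes lymphotoxin alpha, a ligand of both TNF receptors, was at 128, 124 and 116 CPM with DMSO and at 39.9, 41.0 and 56.2 CPM with Yoda1. Its log2 change was -1.43 (SE 0.16, BH-adjusted p = 0.0072, edgeR quasi-likelihood test), and the call was lost without DMSO 1, DMSO 2, DMSO 3 or Yoda1 5, at BH-adjusted p from 0.0518 to 0.0668 in edgeR. Ltb, whose product pairs with lymphotoxin alpha at the membrane, was at 163, 120 and 124 CPM with DMSO and at 178, 178 and 304 CPM with Yoda1, above in every Yoda1 library, and did not pass (log2 change 0.70, BH-adjusted p = 0.19, edgeR). Tnf was at 14.01 to 17.0 CPM with DMSO and 17.7 to 21.1 CPM with Yoda1 and did not pass. Tnfsf8, the CD30 ligand gene, was at 9.44, 11.1 and 12.0 against 6.00, 6.41 and 3.16 CPM, below in every Yoda1 library, and did not pass over all genes (BH-adjusted p = 0.213, edgeR quasi-likelihood test). Tnfsf4, the OX40 ligand gene through which ILC2s can act on T cells, was at 20.3 to 27.0 CPM with DMSO and 33.5 to 35.9 CPM with Yoda1 (BH-adjusted p = 0.203, edgeR). Icosl, the ligand of ICOS, was at 11.0 to 14.2 and 16.6 to 20.5 CPM (BH-adjusted p = 0.416, edgeR). The named ligands other than Lta were chosen after their values were seen, as partners of receptors described above.

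Among 14 further TNF receptor superfamily genes tested, none passed in edgeR. DESeq2 called 1 higher and voom none, where 3.03% and 0.908% of all genes were called higher. At a nominal p under 0.05, 2 were higher and none lower, where 7.39% and 7.11% of all tested genes were. The median log2 change of these genes was -0.23. Tnfrsf26 was at 5.95 ± 1.34 and 12.2 ± 1.0 CPM (SD, n = 3; BH-adjusted p = 0.149, edgeR quasi-likelihood test). Cd40, a receptor of antigen-presenting cells, was at 0.0707 to 1.43 and 3.40 to 6.98 CPM (BH-adjusted p = 0.236, edgeR). Macrophage and dendritic cell markers, of which 7 of 10 could be read, summed to 11.9 to 16.5 CPM with DMSO and 24.2 to 27.4 CPM with Yoda1, with Adgre1 and Csf1r at 1.67 CPM or less in every library. Means were higher with Yoda1 for Lyz2 (2.66 ± 1.97 and 9.16 ± 2.54 CPM) and Cd68 (8.02 ± 1.98 and 11.5 ± 2.8 CPM). Cd14 was higher too (1.23 ± 0.15 and 3.43 ± 3.27 CPM, SD, n = 3), and none of these passed the threshold. The other markers read were left out by the filter on low counts. Of those, Itgax had a higher mean with Yoda1 (0.678 and 1.39 CPM). Adgre1 (1.00 and 0 CPM), Csf1r (0.218 and 0.144 CPM) and Itgam (0.176 and 0.058 CPM) had a lower one. The part of such cells in the Cd40 values was not tested. Of 11 tested genes of other costimulatory and coinhibitory receptors, Pdcd1 rose, by 1.04 on the log2 scale (SE 0.08), and 10 did not pass (BH-adjusted p = 0.00141 for Pdcd1, edgeR). At a nominal p under 0.05, 3 were higher, Havcr2 and Klrg1 besides Pdcd1, and none lower, where 7.39% and 7.11% of all tested genes were. DESeq2 and voom each had 1 higher and none lower, with 3.03% and 0.908% of all genes called higher. Pdcd1 encodes PD-1, a relative of CD28 that holds back signalling, and it was past the threshold in all 6 fits with a library left out. Its call was lost with the label suffix as a term, with summed libraries and against DMSO 1 alone, at BH-adjusted p = 0.145, 0.0885 and 0.358 (edgeR). Ctla4, between Cd28 and Icos on chromosome 1, was at 2.76 CPM or less in every library.

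Genes that carry the signal of these receptors mostly did not pass. Of 23 TRAF adaptors, kinases and regulators of TNF receptors, Tnfaip3 rose, none fell and 22 did not pass; 5 were higher and 1 lower at a nominal p under 0.05, where 7.39% and 7.11% of all genes were. DESeq2 called 3 higher and 1 lower, with 3.03% and 3.53% of all genes so called, and the median log2 change was 0.06. Tnfaip3 encodes the deubiquitinase A20, a brake on this pathway, and was at 19.3, 13.7 and 10.3 CPM with DMSO and 43.2, 30.7 and 40.6 CPM with Yoda1. Its call (BH-adjusted p = 0.0493, edgeR quasi-likelihood test) was lost in all 6 fits with a library left out, whose highest adjusted p was 0.218. Traf1, an adaptor that binds 4-1BB and CD30 tails and was chosen after its values were seen, was at 181, 199 and 150 CPM with DMSO and 250, 274 and 247 CPM with Yoda1 (BH-adjusted p = 0.0793, edgeR). Among 13 NF-kB subunits and inhibitors, Bcl3 and Nfkb1 fell, Relb rose and 10 did not pass, with a median log2 change of 0.11. Over all tested genes 0.923% were called lower and 0.57% higher. Of the 13, 2 were lower and 3 higher at a nominal p under 0.05, where 7.11% and 7.39% of all tested genes were. Over 17 alternative runs the list had 0 to 2 lower and 0 to 3 higher calls. Bcl3, an atypical inhibitor that can act as a coactivator, was at 236 ± 10 and 94.4 ± 19.5 CPM, Nfkb1, the p105 and p50 subunit gene, at 343 ± 9 and 206 ± 4 CPM, and Relb, of the alternative pathway, at 55.1 ± 3.8 and 91.9 ± 2.9 CPM (SD, n = 3). The BH-adjusted p in edgeR was 0.00734 for Bcl3, 0.00734 for Nfkb1 and 0.0348 for Relb. Without DMSO 1, DMSO 2, DMSO 3 or Yoda1 5 the calls of Bcl3 and Nfkb1 were lost, at up to 0.0723 and 0.0784, and that of Relb was lost without any one library except Yoda1 6, at up to 0.192.

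Of 25 tested genes downstream of ICOS and CD28, Pik3r5 rose, none fell and 24 did not pass, and the median log2 change was -0.18. At a nominal p under 0.05, 2 were higher and none lower, where 7.39% and 7.11% of all tested genes were. DESeq2 and voom each called 1 higher and none lower, with 3.03% and 0.908% of all genes called higher. The list also held Pdk1, a pyruvate dehydrogenase kinase gene that is not of this pathway. Pik3r5 encodes a regulatory subunit of the phosphoinositide 3-kinase that G protein coupled receptors engage, not of the form that ICOS binds. It was at 33.2, 32.2 and 43.7 CPM with DMSO and 87.8, 100.3 and 77.7 CPM with Yoda1 (log2 change 1.29, SE 0.18, BH-adjusted p = 0.0136, edgeR). The call was lost without DMSO 1, DMSO 2, DMSO 3 or Yoda1 5, at up to 0.104. Pik3cd, the catalytic subunit gene of lymphocytes, was at 271 to 303 and 212 to 284 CPM and did not pass. None of 6 tested genes of receptor shedding and trafficking passed in edgeR, DESeq2 or voom, and 1 was higher at a nominal p under 0.05: Adam17, the sheddase of TNF receptors, was at 138 to 158 and 161 to 203 CPM. Furin was at 568 ± 104 and 494.5 ± 70.5 CPM (SD, n = 3).

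**Figure D4:**
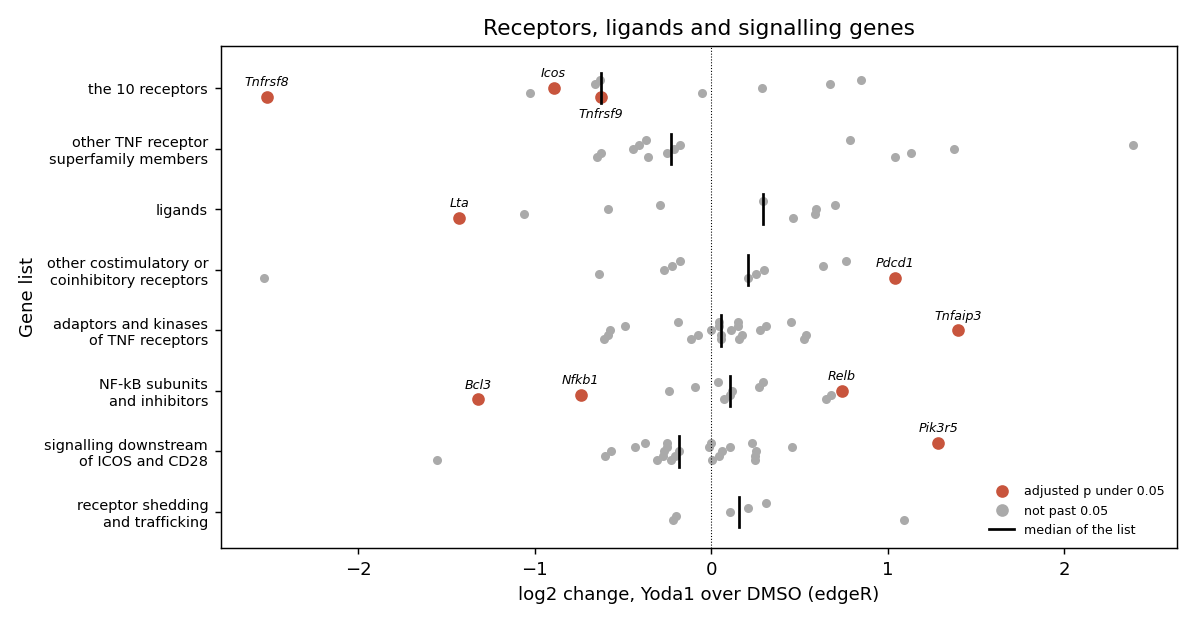
Log2 change of every tested gene in the receptor set and in 7 lists around it, Yoda1 over DMSO; red marks passed an adjusted p of 0.05 over all genes and are named, and black bars are list medians. The median of the 10 receptors is -0.63, and those of the other lists lie between -0.23 and 0.30.

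Some genes outside the set followed the called receptors closely over the 6 libraries. Likeness was the root mean square difference of log2 CPM, each gene centred on its own mean, among 9023 genes of at least 5 CPM. Closest to Icos were Top2a, the mitotic topoisomerase gene, at 0.052 and Tpx2, a spindle assembly factor gene, at 0.074, where Icos itself had an SD of 0.50 over the libraries. Closest to Tnfrsf9 were Slc3a2, the heavy chain gene of amino acid transporters, at 0.021 and Srm, the spermidine synthase gene, at 0.050, with an SD of 0.34 for Tnfrsf9. Slc3a2 was at 1032, 1003 and 1012 CPM with DMSO and 666, 679 and 648 CPM with Yoda1. For Tnfrsf8, with an SD of 1.503, the closest were Csf2rb, a shared cytokine receptor chain gene, at 0.26 and Irf4, an activation-induced transcription factor gene, at 0.39. Like Tnfrsf8, both were lowest in Yoda1 6, at 3.82 and 6.62 CPM. These distances describe 6 libraries of 2 groups, so any gene with a like difference between groups scores as close.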

How the data were processed

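The authors deposited a single table of expected counts (estimates, which may be fractions of a read) for 6 libraries. The genome build was mm10, per the submitters' processing notes; what aligned and counted the reads, with which strand setting and annotation, was not given in the sources used here. Per the labels' protocols, 10 ng of total RNA went into cDNA. Counts were rounded. edgeR 4.0.16 in R 4.3.3 was run on the whole table: TMM factors, filterByExpr with min.count 10 and min.total.count 15, a quasi-likelihood fit and test of group alone (glmQLFit, glmQLFTest), and Benjamini-Hochberg adjustment over 13325 genes at 0.05. The fit was tested on simulated data. CPM refer to the tested genes' totals after TMM. Standard errors are the log2 change over the square root of F, and intervals are 95% t intervals from the fit's degrees of freedom. The limit that a count of 0 allows, 3 counts, was 0.0949 to 0.211 CPM and covers counting error only. Libraries of a group differed by more than counting noise (chi-square per degree of freedom 18.6 to 51.5), so none repeated the counts of another. This does not show that they were separate preparations or came from separate cells. Pairs with a shared label number (21.1 and 25.1) lay within the range of the others.

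The text names all 10 receptor genes. From each list of ligands, related receptors and signalling genes it takes up to 4 genes past the threshold by smallest p, or up to 2 genes by smallest p if none was past it, and for up to 3 called receptors the 2 genes of most like pattern, leaving out predicted genes and pseudogenes. Other genes were named as partners of these or as markers, after their values were seen. Members and lists were chosen with earlier results of these data known. The results were recomputed with RLE, upper quartile and no scaling factors, DESeq2 1.42.0, voom in limma 3.58.1, other filters, glmTreat, the label suffix as a term, summed libraries, DMSO 1 as the only control and each library left out.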

Additional observations from a re-analysis of the deposited data

How the results depend on the processing

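No paired analysis was possible because DMSO libraries carry the numbers 1 to 3 and Yoda1 libraries 4 to 6. Of the receptor genes, 3 were called lower; glmTreat against a 1.5-fold change called 1, and 0 were called with the label suffix as a term, with summed libraries or with DMSO 1 alone against Yoda1, where 1 control leaves the spread to the Yoda1 libraries. Leaving out each library gave 0 to 4. For all genes the lower and higher calls were 123 and 76. DESeq2 gave 498 and 428, voom 121 higher, no filter 50 higher, the filter of 10 CPM in 3 libraries 290 and 158, glmTreat 10 and 6, the suffix term 1 and 2, summed libraries 0 and 1, and DMSO 1 alone 0 and 0; left-out libraries gave 5 to 146 lower and 4 to 74 higher. Of the list genes, 3 fell and 4 rose; DESeq2 gave 10 higher, glmTreat 0 and 1, and the suffix term, summed libraries and DMSO 1 alone 0 and 0, while left-out libraries gave 0 to 3 lower and 1 to 3 higher. The direction turned for Cd28 with the suffix term (0.023) and for Tnfrsf18 without Yoda1 4 (0.031; with each other library left out -0.14 to -0.0089), both not past the threshold; no other receptor, and no list gene or like gene named by the rule, turned in any alternative run. Icos kept its call in 12 of 17 alternatives, Tnfrsf8 in 10 and Tnfrsf9 in 9, and their log2 changes ranged from -0.96 to -0.86, from -2.89 to -2.22 and from -0.68 to -0.59. The cause of the lost calls was not tested, except that left-out and summed libraries leave fewer samples. By its coding, the suffix term leaves DMSO 3 as the only control set against the Yoda1 libraries. Tnfrsf1a (2 to 60 counts per library) and Cd27 (21 to 96) rest on few counts, and Tnfrsf1a ranged from 0.05 to 4.22. Scaling moved the median of all genes by at most 0.053 (log2).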
